A study of Mus musculus with 2 samples.

Results

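VEGF receptors and ligands were described in ECs of livers and hearts of mouse pups, as 9 genes out of the 21951 gene and transgene features that were counted. The genes were set by name and not by a rule on their values, but with earlier results of these data known. They were the receptors Kdr, Flt1 and Flt4, the co-receptors Nrp1 and Nrp2, and the ligands Vegfa, Vegfb, Vegfc and Pgf. The data are a single 10x Genomics library of pooled cells, in which 6 groups carried 1 hashtag each, so every group is 1 sample. The groups were control, iSuRe-Cre and iSuRe-HadCre, each from heart and from liver (iSureCre and iSureHadCre in the labels). All pups were C57BL/6, received 4-hydroxytamoxifen at 40 mg/kg at postnatal day 3 and were collected 3 days later, at the labelled age of postnatal day 6 to 7. The genotype label, shared by all groups, names Cdh5-CreERT2, a tamoxifen-inducible Cre driven by an endothelial promoter, together with iHadSuRe-Cre, and cells were sorted by FACS as CD31+ MbTomato+. Both iSuRe alleles make Cre, which deletes floxed genes, and mark cells with a membrane Tomato reporter. With iSuRe-Cre the reporter and Cre are made together and permanently. With iSuRe-HadCre Cre is made only transiently, and the reporter comes on when the Cre gene is removed. Notch1 is the floxed gene by the study's figure on these cells but not by the labels. The sources used here give neither the full genotype of the control nor the number of pups per group.

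VEGF signals act through tyrosine kinase receptors on endothelium. Kdr (VEGFR2) is the main signalling receptor for Vegfa in blood vessels, Flt1 (VEGFR1) binds Vegfa, Vegfb and Pgf and largely limits signalling through Kdr, and Flt4 (VEGFR3) binds Vegfc and is the receptor of lymphatic growth. Nrp1 and Nrp2 are co-receptors shared with semaphorins. Notch signalling, set off in neighbouring cells by the ligand Dll4, is known to restrain Kdr and Flt4 in sprouting vessels. In the liver, sinusoidal ECs are known for high Kdr and Flt4.

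ECs were barcodes with 2000 to 75000 UMIs (unique molecular identifiers, 1 per captured transcript) that passed the quality limits, carried 1 hashtag and had log-normalized Cdh5 above 0.9. From heart this gave 254 cells for control, 435 for iSuRe-Cre and 311 for iSuRe-HadCre. From liver it gave 54, 858 and 76 in the same order. Levels are given as CPM, a gene's UMIs for every 1000000 UMIs of its group. No test was possible with 1 sample per group, so brackets give exact 95% intervals that cover counting error only, not the spread between pups. Group totals ran from 624048 to 9341120 UMIs and median UMIs per cell from 7322 to 9100, except for 16379 in iSuRe-Cre heart.

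The labels were checked before the members. Heart Notch1 was at 138 CPM for control against 12.6 for iSuRe-Cre and 23.2 for iSuRe-HadCre, and liver Notch1 was at 160.2, 21.4 and 30.7 CPM. WPRE, a part of the reporter transcript, was also present in both control groups, at 562 CPM in heart and 396 CPM in liver. Both values were above those of iSuRe-Cre, at 63.5 and 105 CPM, and below those of iSuRe-HadCre, at 1055 and 1070 CPM. Tomato took the same order, at 97.7 CPM in control heart and 78.5 in control liver. It was at 25.5 and 33.8 CPM for iSuRe-Cre and at 269 and 192 for iSuRe-HadCre. Control cells thus held reporter RNA, and which allele it came from is not known. Notch1 was lower in every iSuRe group, so allele and Notch1 loss cannot be told apart in the ratios to control. All 6 endothelial markers had UMIs in each group, at a summed 3030 to 4127 CPM. RNA of other cells was also present: hepatocyte markers were at 611 CPM in iSuRe-Cre heart against 92.7 CPM in control heart, and neutrophil-lineage markers at 3408 CPM in iSuRe-Cre liver. In liver, hepatocyte markers were at 522 CPM for iSuRe-Cre but only 64.1 for control and 46.9 for iSuRe-HadCre, both below control heart. The part of this RNA in the results was not tested. Summed over 5 capillary markers (Tcf15, Fabp4, Gpihbp1, Meox2 and Aqp7), control liver was at 4327 CPM, near iSuRe-Cre liver (4298) and iSuRe-HadCre liver (5363). The heart groups were at 11314 to 20000 CPM. Control liver was poor in sinusoidal markers, however. None of its 54 cells passed a gate on sinusoidal markers (Stab2, Clec4g, Fcgr2b, Oit3 and Mrc1), whereas 458 of 858 cells did so for iSuRe-Cre liver and 10 of 76 for iSuRe-HadCre liver. The summed level of these 5 markers, all of them with UMIs, was 111 CPM for control liver, 2939 for iSuRe-Cre liver and 635 for iSuRe-HadCre liver, while the heart groups were at 17.0 to 26.1 CPM. The main liver ratios to control are therefore also given without cells that held a Stab2 or Clec4g UMI, and other liver values outside the gates are over all ECs.

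Kdr and Flt1 lie on chromosome 5 of GRCm38, from 75932827 to 75978458 and from 147561604 to 147726011, both on the minus strand, and Vegfc lies on chromosome 8, from 54077606 to 54187096 on the plus strand. The 250 bases before the RefSeq start of these 3 genes (build GRCm38.p6) are shown. Kdr and Vegfc were chosen because they differed most among heart ratios with at least 50 UMIs over both groups, and Flt1 because it moved apart from Kdr. Capitals mark 3 motifs, read on both strands: GGGCGG (SP1-type), TGGGAA (RBPJ-type, RBPJ being the DNA-binding partner of Notch) and ACGTG (the hypoxia response core).
Kdr, chr5:75978456-75978705, minus strand: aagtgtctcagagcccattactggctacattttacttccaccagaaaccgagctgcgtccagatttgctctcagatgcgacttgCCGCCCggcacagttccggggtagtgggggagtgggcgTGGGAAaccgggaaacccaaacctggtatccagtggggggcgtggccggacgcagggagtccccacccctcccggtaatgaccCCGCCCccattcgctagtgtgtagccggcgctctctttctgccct
Flt1, chr5:147726012-147726261, minus strand: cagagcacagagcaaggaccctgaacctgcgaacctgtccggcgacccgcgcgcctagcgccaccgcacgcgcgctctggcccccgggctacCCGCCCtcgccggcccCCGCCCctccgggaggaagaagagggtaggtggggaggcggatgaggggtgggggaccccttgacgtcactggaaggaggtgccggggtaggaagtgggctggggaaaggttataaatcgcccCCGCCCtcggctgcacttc
Vegfc, chr8:54077282-54077531, plus strand: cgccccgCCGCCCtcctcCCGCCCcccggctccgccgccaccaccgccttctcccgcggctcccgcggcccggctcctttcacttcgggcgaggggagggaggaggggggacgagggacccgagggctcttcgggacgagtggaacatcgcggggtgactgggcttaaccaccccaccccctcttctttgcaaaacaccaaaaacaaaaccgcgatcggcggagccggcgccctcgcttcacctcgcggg

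The Kdr window held 2 SP1-type matches and 1 RBPJ-type match. The Flt1 window held 3 and the Vegfc window 2 SP1-type matches, with no other match in either. Over all 32851 windows of this length, 32.7% held GGGCGG, 21.6% TGGGAA and 16.6% ACGTG. GGAA, the core of ETS sites and a part of TGGGAA, was left in lower case because 93.4% of windows held it, among them Kdr and Flt1 with 4 matches each and Vegfc with 1. RefSeq windows were found for all 9 members, and a match in these letters is a description and not a bound site.

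In heart, Kdr was higher in both iSuRe groups than in control. Control had 184 CPM of Kdr (169 to 200.1), iSuRe-Cre had 480.4 CPM (466 to 496) and iSuRe-HadCre had 831 CPM (799.7 to 864). The 3 intervals were apart. Relative to control, Kdr was 2.61-fold (2.39 to 2.86) for iSuRe-Cre and 4.51-fold (4.12 to 4.96) for iSuRe-HadCre, against a median over all genes of 0.960 and 1.09. Both comparisons share the control cells. iSuRe-HadCre exceeded iSuRe-Cre 1.73-fold (1.65 to 1.82), where the median gene was at 1.15.

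In liver, control had 231 CPM of Kdr (195 to 272), iSuRe-Cre had 771 CPM (754 to 789) and iSuRe-HadCre had 411 CPM (365 to 462). Relative to control this was 3.34-fold (2.83 to 3.97) for iSuRe-Cre and 1.78-fold (1.45 to 2.20) for iSuRe-HadCre, so the order of the alleles was opposite to heart, with iSuRe-HadCre at 0.533 (0.472 to 0.601) of iSuRe-Cre. Without cells holding a Stab2 or Clec4g UMI the ratios to control were 1.26 (1.04 to 1.55) and 1.28 (0.997 to 1.64), and that between the alleles was 1.01 (0.842 to 1.20). Control liver Kdr itself was at 266 CPM (219 to 319) in the cells that were kept. Within the sinusoidal gate iSuRe-HadCre was at 0.958 (0.748 to 1.21) of iSuRe-Cre, with 10 and 458 cells. In heart, leaving out cells with a Stab2 or Clec4g UMI gave ratios to control of 2.65 and 4.54.

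Flt1 did not follow Kdr. Heart control had 566 CPM of Flt1 (539.5 to 593), iSuRe-Cre had 368 (355 to 382) and iSuRe-HadCre had 565 (539 to 592). The intervals of control and iSuRe-HadCre overlapped almost fully, with a ratio of 0.998 (0.933 to 1.07), while iSuRe-Cre was at 0.651 (0.613 to 0.691) of control. Liver control had 535 CPM of Flt1 (479 to 596), iSuRe-Cre had 666 (649 to 682) and iSuRe-HadCre had 674 (613 to 738), and the latter 2 intervals overlapped. The liver ratio of iSuRe-Cre to control was 1.24 (1.11 to 1.39) over all cells and 0.839 (0.722 to 0.978) without Stab2 or Clec4g UMIs. For iSuRe-HadCre liver the same ratio was 1.26 (1.09 to 1.45) and 1.28 (1.07 to 1.53).

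**Figure D1:**
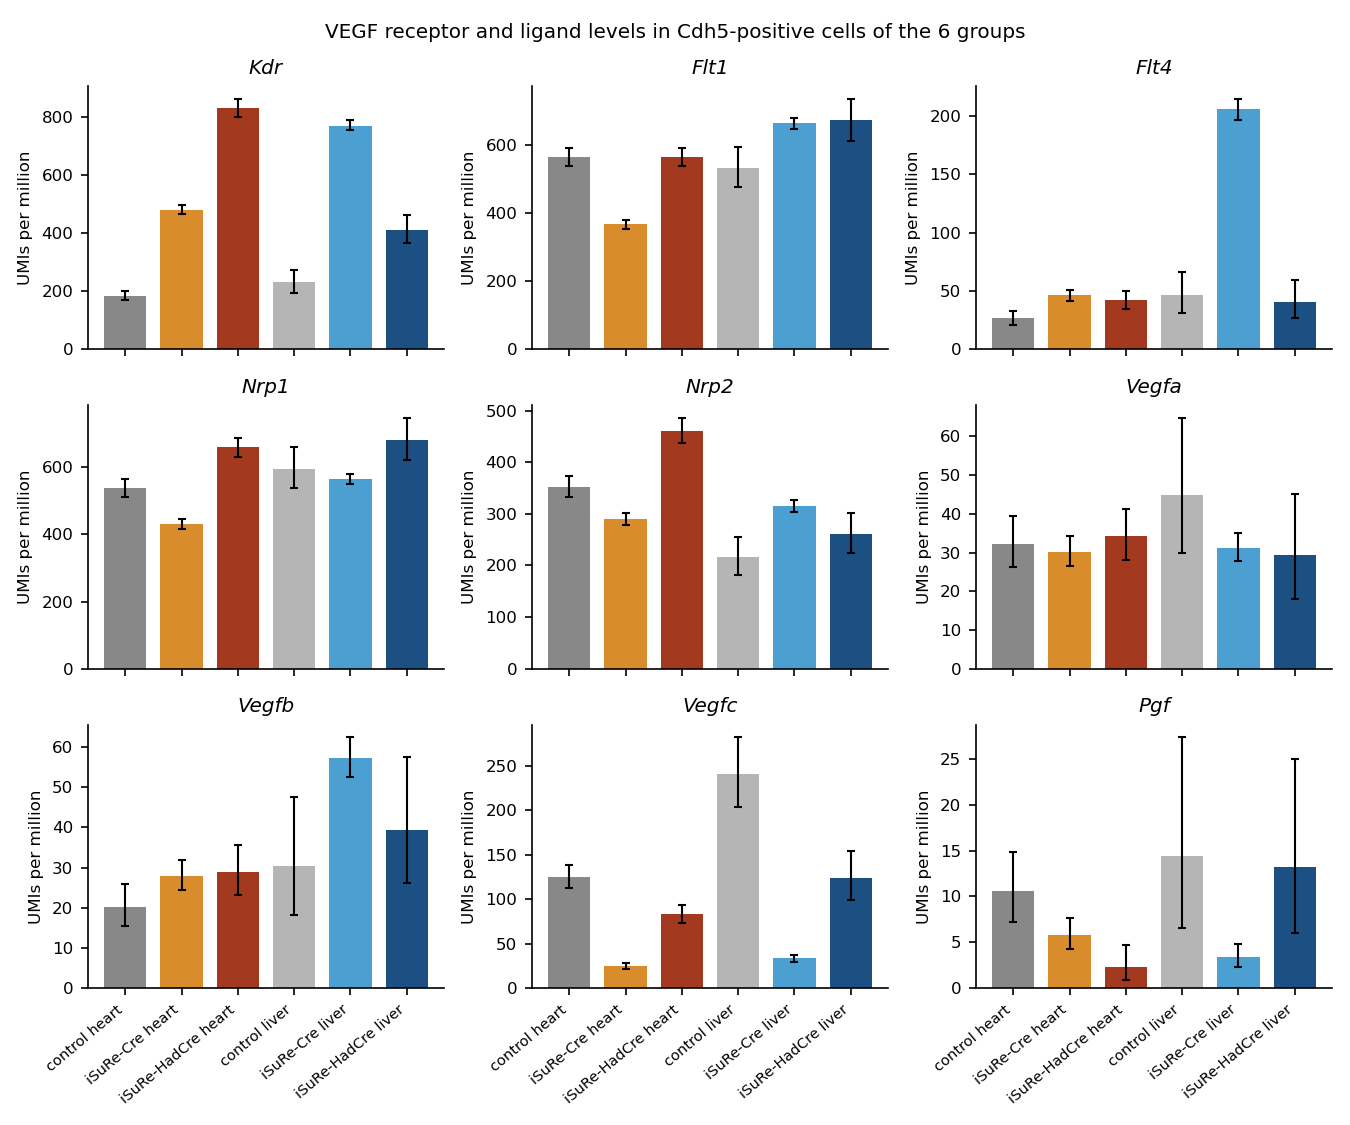
Level of each of the 9 members in the 6 groups, in CPM on linear axes that start at 0. Bars are 1 sample each and whiskers exact 95% Poisson intervals (counting error only). Kdr is lowest in both control groups, and Vegfc is highest in both.

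The balance of both receptors differed between control and iSuRe hearts. Kdr UMIs per Flt1 UMI came to 0.325 (0.295 to 0.358) for control heart, 1.30 (1.24 to 1.37) for iSuRe-Cre heart and 1.47 (1.38 to 1.56) for iSuRe-HadCre heart. The liver ratios were 0.431 (0.352 to 0.526), 1.16 (1.12 to 1.20) and 0.611 (0.525 to 0.710). These ratios are compared between groups and do not give the proportion of the receptors, since capture can differ between genes. Free RNA of the library (barcodes of 10 to 100 UMIs) had a ratio of 1.12 (0.881 to 1.43).

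The difference in Kdr was also seen in how many cells held a UMI. At full depth a Kdr UMI was found in 55.1% of heart cells for control, 93.1% for iSuRe-Cre and 95.5% for iSuRe-HadCre. Thinned to 2000 UMIs per cell the shares were 24.0%, 57.5% and 75.2% in heart and 23.0%, 66.0% and 48.0% in liver. Both receptors together were seen in 16.0% of thinned heart cells for control, 30.3% for iSuRe-Cre and 51.1% for iSuRe-HadCre. Cells with Flt1 but no Kdr made up 49.8%, 20.7% and 12.6%. For comparison, hepatocytes are not known to express Kdr, and 13.4% of thinned hepatocyte-gated cells (258 cells, median depth 4428 UMIs) held a Kdr UMI.

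**Figure D2:**
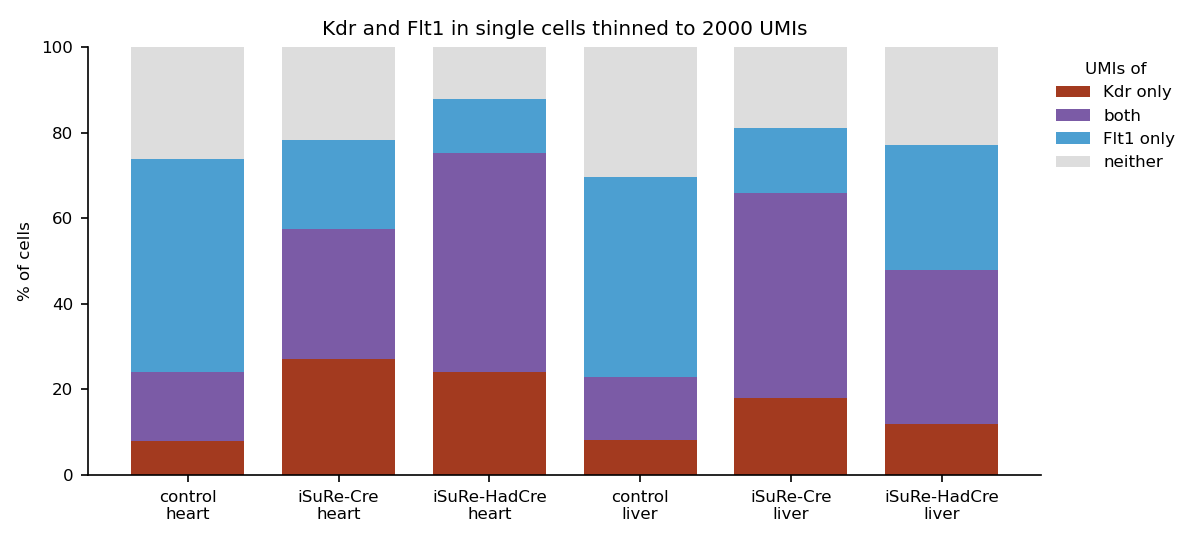
Share of cells (%) with UMIs of Kdr only, both receptors, Flt1 only or neither, with every cell thinned to 2000 UMIs (mean over all possible draws), in the 6 groups. Cells with Flt1 only form the largest part in control heart (49.8%) and control liver (46.7%) and are at 12.6% to 29.1% in the iSuRe groups.

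Flt4 was low in heart, at 26.7 CPM (21.2 to 33.2) for control, 46.4 (41.8 to 51.2) for iSuRe-Cre and 41.9 (35.0 to 49.7) for iSuRe-HadCre. The ratios to control were 1.73 (1.36 to 2.23) and 1.57 (1.18 to 2.09), and the 2 iSuRe groups overlapped. Liver Flt4 was at 46.5 CPM (31.1 to 66.7) for control, 206 (197 to 215) for iSuRe-Cre and 41.0 (27.2 to 59.3) for iSuRe-HadCre. Only iSuRe-Cre liver stood apart, at 4.43 times control (3.07 to 6.63), and this was 0.780 (0.482 to 1.31) without Stab2 or Clec4g UMIs. For iSuRe-HadCre liver the ratio was 0.882 (0.506 to 1.54) over all ECs and 0.561 (0.259 to 1.16) without those UMIs. The 6 lymphatic markers were also highest with iSuRe-Cre in each tissue, though not in proportion to Flt4: their summed level was 26.4 CPM for control heart, 155 for iSuRe-Cre heart and 29.3 for iSuRe-HadCre heart, and 91.3, 566 and 152 CPM in liver. All 6 had UMIs with iSuRe-Cre in both tissues. Mmrn1 was at 0 in both other heart groups, Ccl21a in both other liver groups, and Mmrn1 and Reln were also at 0 in iSuRe-HadCre liver. Ccl21a made up 111 of the 155 CPM in iSuRe-Cre heart, from 5 cells, and Lyve1, which sinusoidal ECs also express, made up 375 of the 566 CPM in iSuRe-Cre liver. The part of these markers in the Flt4 values was not tested.

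The co-receptors differed less. Heart Nrp1 was at 537 CPM (511 to 564) for control, 431 (417 to 446) for iSuRe-Cre and 659 (630.5 to 688) for iSuRe-HadCre, with ratios to control of 0.803 (0.757 to 0.852) and 1.23 (1.15 to 1.31). In liver Nrp1 was at 596, 565 and 682 CPM, and both intervals of the ratio to control held 1. Without Stab2 or Clec4g UMIs the Nrp1 ratio was 0.732 (0.640 to 0.838) for iSuRe-Cre liver and 0.929 (0.784 to 1.10) for iSuRe-HadCre liver. Heart Nrp2 was at 352 CPM (332 to 374) for control, 290.1 (279 to 302) for iSuRe-Cre and 461 (438 to 486) for iSuRe-HadCre, with ratios of 0.823 (0.766 to 0.885) and 1.31 (1.21 to 1.42). In liver Nrp2 was at 216 (181 to 256), 315 (304 to 326) and 261 (224 to 302) CPM, and without Stab2 or Clec4g UMIs at 0.982 (0.791 to 1.23) of control for iSuRe-Cre and 1.03 (0.782 to 1.36) for iSuRe-HadCre. Over all heart ECs the co-receptors were thus lower than control in iSuRe-Cre and higher in iSuRe-HadCre, and so they were in a gate on capillary markers. In a gate on large-vessel markers heart Nrp1 ran the other way, at 1.46 (1.22 to 1.75) of control for iSuRe-Cre and 0.804 (0.634 to 1.02) for iSuRe-HadCre. Heart Nrp2 in that gate was at 104 CPM (70.0 to 148) for control and 91.6 (65.2 to 125) for iSuRe-Cre. For iSuRe-HadCre it was at 61.7 CPM (34.5 to 102, from 15 UMIs), so it was not higher than control there.

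Vegfc, the ligand of Flt4, was the ligand with the most UMIs in control ECs. Heart Vegfc was at 125 CPM (113 to 138) for control, 24.2 (21.0 to 27.8) for iSuRe-Cre and 82.8 (73.0 to 93.6) for iSuRe-HadCre, with no overlap. In liver it was at 240.4 CPM (203 to 282), 33.2 (29.6 to 37.1) and 124 (99.4 to 154), again with no overlap. Vegfc was below control in all 4 iSuRe groups, with ratios of 0.194 (0.162 to 0.230) and 0.662 (0.563 to 0.778) in heart and 0.138 (0.113 to 0.169) and 0.518 (0.392 to 0.680) in liver. The iSuRe-HadCre groups exceeded the iSuRe-Cre groups 3.42-fold (2.83 to 4.14) in heart and 3.75-fold (2.91 to 4.78) in liver. Over the alternative settings this ratio ran from 2.61 to 3.78 in heart and from 1.02 to 4.49 in liver. Inside the liver gates the alleles were closer. Vegfc of iSuRe-HadCre and iSuRe-Cre was at 266 and 149.9 CPM in the large-vessel gate and at 71.7 and 70.6 in the capillary gate. In the sinusoidal gate it was at 31.7 (from 2 UMIs) and 20.9 CPM. Without Stab2 or Clec4g UMIs the liver ratios to control were 0.308 (0.231 to 0.411) and 0.815 (0.588 to 1.13). The summed level of 5 large-vessel markers (Gja5, Vwf, Gja4, Bmx and Sox17) took the same order (control, iSuRe-Cre, iSuRe-HadCre), with 408, 214 and 380.3 CPM in heart and 896, 359 and 761 CPM in liver. All 5 had UMIs in every group, but not every marker took that order: Vwf was lowest in control heart (21.1, 32.2 and 29.6 CPM), and in liver Sox17 (169.9, 82.4 and 229.9 CPM) and Bmx (67.3, 30.9 and 79.1 CPM) were highest with iSuRe-HadCre. Sox17 made up 218 of the 408 CPM in control heart.

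Within the cells that passed the large-vessel gate, heart Vegfc was at 467 CPM for control, 35.2 for iSuRe-Cre and 416 for iSuRe-HadCre, from 27, 27 and 24 cells. Relative to control this was 0.0755 (0.0411 to 0.129) for iSuRe-Cre and 0.890 (0.681 to 1.16) for iSuRe-HadCre. In the large-vessel gate of liver Vegfc was at 621, 149.9 and 266 CPM, ratios of 0.241 (0.189 to 0.309) and 0.428 (0.297 to 0.607). In the capillary gate of heart the ratios were 0.202 (0.161 to 0.252) and 0.652 (0.512 to 0.825). The difference in Vegfc between iSuRe-Cre and control heart, 0.194 over all cells, was thus about as large or larger inside both gates. Gate genes can differ with the allele themselves, so the gates need not hold the same vessels in each group.

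Kdr inside the same gates of heart was higher in both iSuRe groups than in control. In the capillary gate it was at 212 CPM for control, 577 for iSuRe-Cre and 1121 for iSuRe-HadCre, with ratios to control of 2.72 (2.47 to 3.00) and 5.29 (4.78 to 5.86). In the large-vessel gate it was at 72.6, 167 and 317 CPM, ratios of 2.30 (1.40 to 3.94) and 4.36 (2.66 to 7.44). The large-vessel gate of liver gave Kdr ratios of 2.37 (1.63 to 3.57) and 2.57 (1.64 to 4.12), from 69 and 16 cells against 21 control cells. These were above the 1.26 and 1.28 over all liver cells without Stab2 or Clec4g UMIs. The capillary gate of liver, with 10 to 31 cells a group, gave 1.66 (1.15 to 2.48) and 1.75 (1.16 to 2.72). Flt1 in the large-vessel gate of iSuRe-Cre was at 0.611 (0.512 to 0.730) of control in heart and 0.774 (0.652 to 0.924) in liver. For iSuRe-HadCre liver, where Flt1 was above control over all ECs, it was at 0.796 (0.619 to 1.02) of control in the large-vessel gate and 0.534 (0.386 to 0.737) in the capillary gate.

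**Figure D3:**
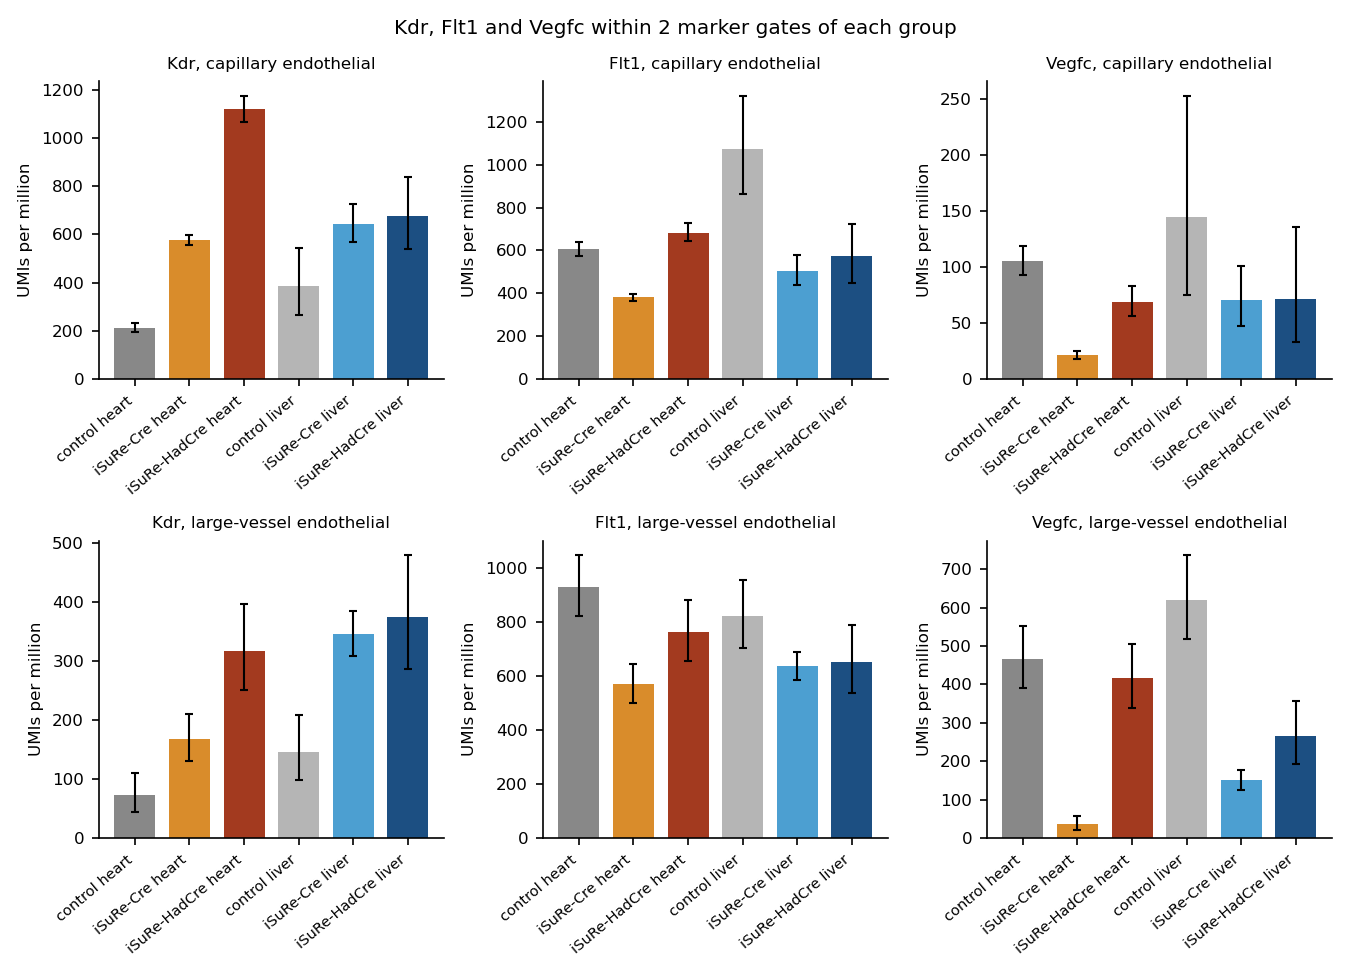
Kdr, Flt1 and Vegfc in CPM (axes from 0) within the capillary gate (top) and the large-vessel gate (bottom) of each group, 1 sample per bar, with exact 95% Poisson intervals. Kdr is lowest in the control of each tissue in both gates, and Vegfc in the large-vessel gate is lowest in iSuRe-Cre heart at 35.2 CPM.

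The other ligands were low in ECs. Vegfa, the main angiogenic ligand, was between 29.3 and 44.9 CPM in the 6 groups, and every interval of the ratio to control held 1. Vegfb was at 20.1 CPM (15.4 to 25.9), 27.9 (24.5 to 31.8) and 29.0 (23.3 to 35.7) over the heart groups in the order above, with ratios to control of 1.39 (1.04 to 1.87) and 1.44 (1.03 to 2.03). In liver Vegfb was at 30.4, 57.4 and 39.5 CPM, with a ratio of 1.88 (1.19 to 3.16) in iSuRe-Cre, which was 1.57 (0.857 to 3.16) without Stab2 or Clec4g UMIs. Pgf rested on 7 to 48 UMIs per group, between 2.26 and 14.4 CPM. Its ratio to control was 0.547 (0.343 to 0.885) for iSuRe-Cre heart, 0.214 (0.0796 to 0.493) for iSuRe-HadCre heart, 0.238 (0.111 to 0.566) for iSuRe-Cre liver and 0.914 (0.321 to 2.60) for iSuRe-HadCre liver.

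Counted against all genes, the members past 2-fold were few. In iSuRe-Cre heart 1 of 9 members was over 2-fold higher than control (Kdr), where 4.59% of 10651 genes with at least 50 UMIs over both groups were, and 1 was over 2-fold lower (Vegfc), where 2.47% of genes were. In iSuRe-HadCre heart 1 of 8 was higher (Kdr; background 3.75%) and 0 lower (background 0.627%). In iSuRe-Cre liver 2 of 8 were higher (Kdr and Flt4; background 7.79%) and 1 lower (Vegfc; background 6.94%). In iSuRe-HadCre liver 0 of 6 were past 2-fold either way (background 1.64% and 2.39%). The members' median ratio was 0.823, 1.27, 1.35 and 1.17 in these 4 comparisons, against 0.960, 1.09, 0.957 and 1.00 over all genes. Between the alleles in heart 1 of 9 was higher in iSuRe-HadCre (Vegfc; background 5.54%) and 1 lower (Pgf; background 2.33%). In liver 1 of 8 was higher (Vegfc; background 5.22%) and 1 lower (Flt4; background 7.09%). These 2 liver ratios were each past 2-fold in 17 of 19 alternative settings, and ran from 1.02 to 4.49 and from 0.119 to 0.719. With 1 sample per group these counts describe the libraries and are not tested.

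**Figure D4:**
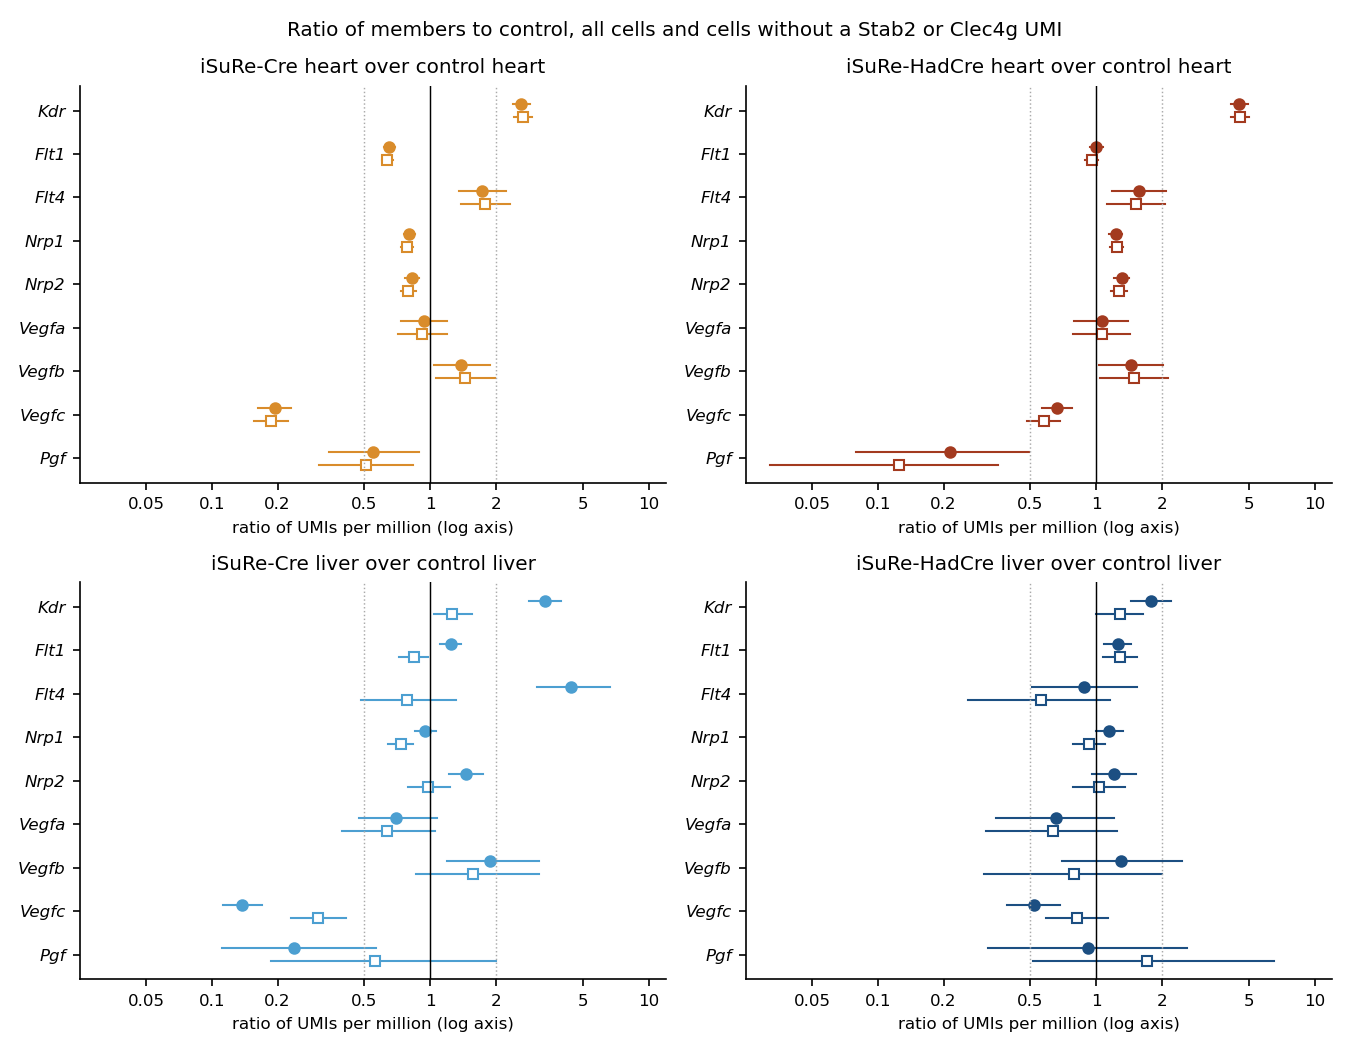
Ratio of CPM to control for the 9 members in the 4 iSuRe groups (log axis), with exact 95% intervals. Filled circles are all ECs, open squares are cells without a Stab2 or Clec4g UMI, and dotted lines mark 2-fold. In heart the 2 sets lie together, and in liver Kdr and Flt4 of iSuRe-Cre move from 3.34 and 4.43 to 1.26 and 0.780.

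Liver was also set against heart within a genotype. In control 0 of 8 members were past 2-fold (background 6.13% higher and 3.54% lower in liver), with Vegfc at 1.92 (1.58 to 2.33; 0.984 with HTODemux hashtag calls) and Nrp2 at 0.614 (0.509 to 0.735; 1.06 in the capillary gate). In iSuRe-Cre 2 of 9 were over 2-fold higher in liver, Flt4 at 4.44 (3.97 to 4.96) and Vegfb at 2.05 (1.76 to 2.41), and 0 lower (background 9.41% and 4.45%). The Flt4 ratio was 0.832 (0.645 to 1.06) without Stab2 or Clec4g UMIs. Vegfb was past 2-fold in only 7 of 18 alternative settings (1.33 to 2.38). In iSuRe-HadCre 1 of 8 was over 2-fold lower in liver, Kdr at 0.495 (0.436 to 0.560), and 0 higher (background 4.76% and 3.31%). Kdr stayed lower at 0.407 (0.344 to 0.479) without Stab2 or Clec4g UMIs, and was past 2-fold in 8 of 18 alternative settings (0.256 to 0.608).

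Other genes of the pathway were read as 4 lists, each over the 4 comparisons with control (iSuRe-Cre heart, iSuRe-HadCre heart, iSuRe-Cre liver, iSuRe-HadCre liver) and counted among list genes with at least 50 UMIs. Over all genes 4.59%, 3.75%, 7.79% and 1.64% were higher and 2.47%, 0.627%, 6.94% and 2.39% lower in that order, with medians of 0.960, 1.09, 0.957 and 1.00. Of the signal transducers downstream of Kdr (18 genes such as Plcg1, Akt1 and Nos3), 14 to 16 had enough UMIs, and 0 were past 2-fold in any of the 4 comparisons with control. Src was on this list but had too few UMIs to be counted. Of 20 VEGF-induced genes, 0 were higher and 4 lower of 20 counted in iSuRe-Cre heart, 1 higher and 1 lower of 19 in iSuRe-HadCre heart, 1 higher and 3 lower of 16 in iSuRe-Cre liver, and 0 either way of 11 in iSuRe-HadCre liver. Their median ratio was 0.786, 1.15, 0.955 and 0.995 in that order. The 4 lower genes in iSuRe-Cre heart, named after their values were seen, were Nr4a2 (0.492), the Notch ligand Dll4 (0.451), the tip cell gene Esm1 (0.317) and the chemokine receptor Cxcr4 (0.256). In iSuRe-HadCre heart, by the same late choice, Nr4a3 was at 2.70 (1.52 to 5.02) and Esm1 at 0.334 (0.163 to 0.641).

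Of the 18 receptor modulators, 1 was higher and 3 lower of 15 counted in iSuRe-Cre heart, 2 higher and 0 lower of 14 in iSuRe-HadCre heart, 3 higher and 3 lower of 15 in iSuRe-Cre liver, and 0 either way of 12 in iSuRe-HadCre liver. The genes past 2-fold in heart are named after their values were seen. Ptprj, a receptor phosphatase, was higher in both iSuRe hearts (2.13 and 5.47) but at 0.322 in iSuRe-Cre liver. Lower in iSuRe-Cre heart were Ptprb (0.348), a phosphatase that restrains Kdr, Efnb2 (0.498), which aids receptor uptake, and Ccbe1 (0.240), which is needed to process Vegfc and was at 2.33 in iSuRe-HadCre heart. Ccbe1 was at 5.34 in iSuRe-Cre liver, resting on 1 UMI in control liver. Of 19 transcription regulators, 2 were higher and 2 lower of 18 counted in iSuRe-Cre heart, 1 higher and 5 lower of 18 in iSuRe-Cre liver, and 0 either way in iSuRe-HadCre heart (of 16) and liver (of 13). The 2 lower in iSuRe-Cre heart, again named after their values were seen, were the Notch targets Hey1 (0.240; 0.113 in iSuRe-Cre liver) and Hes1 (0.457; 0.425 in iSuRe-Cre liver). With iSuRe-HadCre Hey1 was at 1.09 in heart and 0.843 in liver, and Hes1 at 0.814 and 0.711. The 2 higher were Prox1 (2.27) and Egln3 (2.59). No gene of the 4 lists was past 2-fold in the same direction in all 4 comparisons, which was the rule for naming one.

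Across the library, cells were gated by marker UMIs, whatever their hashtag, into 17 classes of 21 to 1444 cells. Most cells outside the endothelial gates had no hashtag, and the sinusoidal gate was mostly iSuRe-Cre liver (408 of 503 cells), so classes are not matched for genotype. Levels here are a description with no test. Free RNA in this library held much endothelial transcript, so levels in other cells are given beside the amount that free RNA would give, estimated from Tie1, Egfl7, Cldn5 and Emcn, which were chosen after seeing the data.

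The receptors lay in endothelium. Kdr was highest in the sinusoidal gate at 1242 CPM (1210 to 1275; 1299 in its cells with a hashtag and 706 in those without), then in the capillary gate at 563 (551 to 575). The lymphatic gate at 307 (264 to 354), the large-vessel gate at 288 (269 to 307) and the endocardial gate at 235 (197 to 278) overlapped with their neighbours in this order. In the 12 other classes Kdr was 0.348 to 1.37 times the free RNA estimate. Flt1 was at 897 CPM in the sinusoidal, 702 in the large-vessel, 466 in the capillary and 445 in the endocardial gate, the last pair with overlapping intervals, and fell away in the lymphatic gate at 89.7 CPM (67.5 to 117). Flt1 was also 2.36 times the free RNA estimate in mural cells, at 39.1 CPM (30.9 to 48.8). In neuron-gated cells it was 2.20 times that estimate, at 19.7 CPM (14.7 to 25.7).

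Flt4 was at 362 CPM (345 to 379.7; 382 with and 212 without a hashtag) in the sinusoidal and 210.3 CPM (176 to 249.9) in the lymphatic gate, and at 28.0 to 46.3 CPM in the other endothelial gates. The lymphatic gate (50 cells) showed the reverse use of the co-receptors, with Nrp2 at 561 CPM (503 to 623) and Nrp1 at 44.0 CPM (29.0 to 64.0). In the large-vessel gate Nrp1 was at 699 CPM and Nrp2 at 111 CPM. The neuropilins were the receptors with levels well above free RNA outside endothelium. Nrp1 was at 175 CPM in macrophage-gated cells (6.96 times free RNA), 152 in neuron-gated cells (13.4 times), and 123 in both mesenchymal and mural cells. Nrp2 was at 178 CPM in mural, 173 in neuron-gated (24.4 times) and 99.7 in chondrocyte-gated cells.

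Of the ligands, Vegfc was highest in the large-vessel gate at 271 CPM (253 to 290.1), and next in the capillary gate at 41.1 (37.9 to 44.5), which overlapped with mesenchymal cells at 35.9 (32.4 to 39.7). Among the classes kept, Vegfa was also highest in the large-vessel gate, at 86.9 CPM (76.9 to 97.9). Epithelial cells at 57.1 (47.0 to 68.7), mesenchymal cells at 49.1 and chondrocyte-gated cells at 48.4 followed, with overlapping intervals. Large-vessel cells with a hashtag were at 65.3 CPM (52.6 to 80.0), which overlapped with epithelial cells. Those without a hashtag were at 109 CPM (93.1 to 126). Cardiomyocytes (15 cells) and skeletal muscle (19 cells) were left out for too few cells. No cell was gated as stellate, podocyte or epicardial, so ligand levels of these left-out classes were not ranked. Vegfb was spread widely, from 96.2 CPM (85.7 to 108) in chondrocyte-gated cells to 21.0 (18.8 to 23.5) in the capillary gate among classes of over 21 cells. Pgf, a ligand of Flt1, was low throughout, with its highest level in mural cells at 13.5 CPM (8.91 to 19.7).

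**Figure D5:**
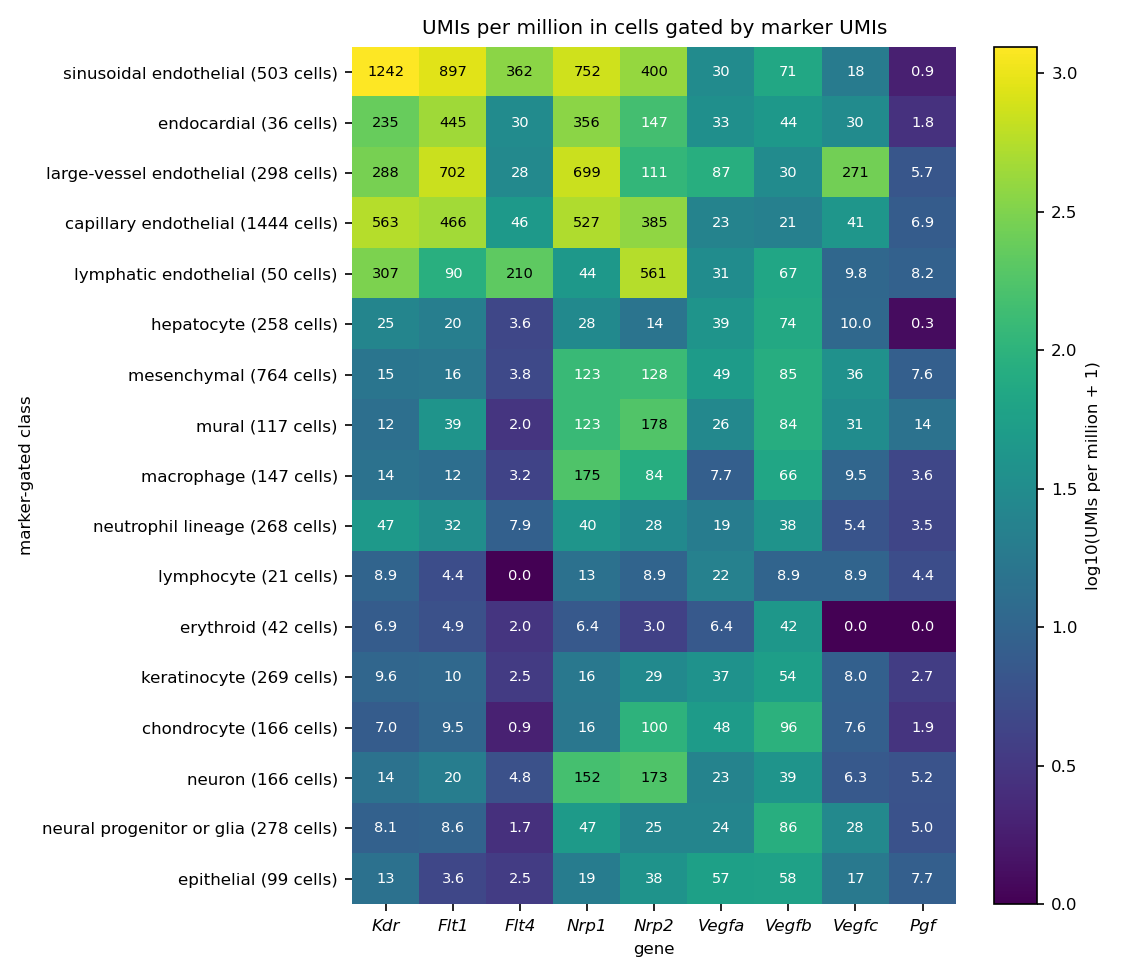
CPM of the 9 members (columns) in 17 classes gated by marker UMIs (rows, with cell numbers), with colour on a log10 scale. Kdr, Flt1 and Flt4 are high in the endothelial rows, Nrp1 and Nrp2 also reach 123 to 178 CPM in mesenchymal and mural rows, and Vegfc peaks in the large-vessel row at 271 CPM.

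Over the 17 classes the genes most like each member were ranked by Pearson's r of log2(CPM + 10) among 7866 genes, as a description. The classes share 1 library, its free RNA and very different depths. Kdr was closest to Scarf1, Iigp1 and Myct1 (r = 0.98 each), Flt1 to Arhgef15 (0.99), Flt4 to Klhl3 (0.93), Nrp1 to Stard9 (0.95) and Nrp2 to Rgs7bp (0.92). Vegfc was closest to Sox13 (0.88), Vegfb to Hsd17b10 (0.82) and Vegfa to Sema3c (0.81).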

How the data were processed

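A single 10x Genomics library of hashtagged ECs was analysed. Per the labels and the study's methods, the authors mapped and counted reads in Cell Ranger 7.1.0, on a GRCm38 reference that also held transgenes. They deposited raw UMI counts of every barcode, 21951 gene and transgene features and 13 hashtag or multiplexing features, of which the 7 that the labels tie to no group were set aside. Nothing in the deposited counts was normalized.

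From 2755147 barcodes, 14348 passed (over 2000 and under 75000 UMIs, over 500 genes, mitochondrial and haemoglobin shares under 5%). A cell was assigned when its own hashtag had at least 25 UMIs (140 for HTO302) and the other 5 were below theirs, which left 2391 cells. A further 186 barcodes with several hashtags, treated as doublets, and 11771 with none were left out of the groups. Cdh5 above 0.9 (natural log of 1 plus UMIs per 10000) left 1988 ECs. Reporter level was not used to choose cells, whereas the study also removed cells with normalized WPRE of 0.5 or below. Above that limit were 145 of 435 iSuRe-Cre heart and 379 of 858 iSuRe-Cre liver cells. For iSuRe-HadCre it was 292 of 311 in heart and 66 of 76 in liver, and for control 228 of 254 and 40 of 54.

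UMIs were summed per group and scaled to 1000000 (CPM), with exact 95% Poisson, conditional or binomial intervals for counting error, so shallow groups are less certain (3 UMIs equal 4.81 CPM in control liver and 0.321 CPM in iSuRe-Cre liver). No p-value was computed, since each group is 1 sample. A gene counted as past 2-fold had at least 50 UMIs over both groups. Against control liver, with 624048 UMIs in all against 9341120 in iSuRe-Cre liver, such genes can rest on few control UMIs. Cells were gated by at least 5 UMIs over at least 3 markers of a class and at least 3 times the free RNA expectation, with exclusive classes of at least 20 cells across the library (endothelial classes also needed at least 3 endothelial marker UMIs) and non-exclusive gates within groups. Shares were also computed with cells thinned to 2000 UMIs. Fixed genes were the members, 4 pathway lists and markers; a list gene was to be named where it was past 2-fold the same way in all 4 comparisons with control, and those named otherwise are marked. Members, lists and markers were chosen with earlier results of these data known. The ratio and its intervals were tested on simulated Poisson counts, which hold counting error only. That test cannot show whether the intervals cover the spread between cells or pups. Alternatives covered cell selection, hashtag calls, quality limits, scaling, free RNA and cell classes. Python 3.11.15, scipy 1.17.1, and R 4.3.3 with Seurat 5.3.0 were used, and gene positions come from a GRCm38 annotation matched by gene ID.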

Additional observations from a re-analysis of the deposited data

Results flagged for a closer look

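Flt1 and Nrp2 moved in opposite directions in the 2 tissues in iSuRe-Cre. Flt1 was at 0.651 of control in heart and at 1.24 in liver, and Nrp2 at 0.823 in heart and 1.46 in liver. All 4 counting intervals lay away from 1, but with 1 sample per group the difference between tissues was not tested. Sinusoidal markers differ between the liver groups, and without cells holding a Stab2 or Clec4g UMI the liver ratios were 0.839 for Flt1 and 0.982 for Nrp2.

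Kdr was also present in cells that entered no comparison. The 5585 Cdh5-positive cells without a hashtag had Kdr at 355 CPM (348 to 361), above the 184 CPM of control heart. Their group is not known.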

How the results depend on the processing

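The 9 members' ratios over the 9 comparisons were recomputed under 19 alternatives, which gave 1322 values. Of these, 1003 stayed within the counting interval of the reported ratio, and 126 fell on the other side of 1. For 91 of the 126 the reported interval held 1, and the other 35 belong to 19 ratios. Of ratios past 2-fold, Flt4 of iSuRe-Cre over control liver crossed 1 (0.780 without Stab2 or Clec4g UMIs, 0.983 in the capillary gate), as did Flt4 of iSuRe-Cre liver over heart (0.832 without those UMIs) and Pgf of iSuRe-HadCre over iSuRe-Cre heart (1.14 with HTODemux). Smaller ratios to control that crossed included Flt1 of iSuRe-Cre liver (0.839 and 0.469 in the same 2 settings as Flt4), Nrp2 of iSuRe-Cre liver (0.982 and 0.711) and Flt1 of iSuRe-HadCre liver (0.534 in the capillary gate, 0.926 without a Cdh5 criterion). The cause was not tested beyond the cells that each alternative removes.

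Kdr over control stayed above 1 under each alternative. In iSuRe-Cre heart it was 2.87 with a hashtag minimum of 50 UMIs, 1.93 with HTODemux, 3.16 with cells weighted equally and 2.91 with free RNA subtracted. In iSuRe-HadCre heart it was 4.06 both without a Cdh5 criterion and with a hashtag 3 times the next, 2.99 with HTODemux, 5.36 with fewer than 6000 genes, 5.29 in the capillary gate and 6.29 with equal weights. In iSuRe-Cre liver it was 4.13 with at least 1 Cdh5 UMI, 4.20 without a Cdh5 criterion, 4.37 with fewer than 6000 genes, 1.26 without Stab2 or Clec4g UMIs, 1.66 in the capillary gate and 4.74 with equal weights. In iSuRe-HadCre liver it was 1.32 without a Cdh5 criterion, 2.37 with fewer than 6000 genes, 1.28 without Stab2 or Clec4g UMIs and 2.64 with equal weights.

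Kdr of iSuRe-HadCre over iSuRe-Cre heart was 1.64 with at least 1 Cdh5 UMI, 1.58 without a Cdh5 criterion, 1.54 and 1.60 with hashtag minimums of 10 and 50 UMIs, 1.49 with a hashtag 3 times the next, 1.55 with HTODemux, 1.88 with fewer than 6000 genes, 1.94 in the capillary gate, 1.99 with equal weights, 1.51 with median-of-ratios scaling and 1.57 with free RNA subtracted. In liver the same ratio was 0.461 with at least 1 Cdh5 UMI, 0.313 without a Cdh5 criterion, 0.427 with a hashtag minimum of 10 UMIs, 0.602 with a hashtag 3 times the next, 1.01 without Stab2 or Clec4g UMIs, 1.05 in the capillary gate and 0.958 in the sinusoidal gate. The sinusoidal gate gave no other ratio, because the other groups had fewer than 10 cells in it. Of 369 class levels recomputed with other gates or hashtag states, 281 kept within their interval and 88 moved.

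Limits: each group is 1 hashtagged sample, so no value has a replicate check and pups cannot be told apart from genotype. No paired analysis was possible because no group has replicates. Control liver has 54 cells and 624048 UMIs, so liver ratios of low members are wide. Estimated free RNA made up 1.74% to 20.5% of the UMIs of a group.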

Other observations

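Vegfd, a further ligand of Flt4 outside the 9 members, was close to the detection limit in ECs, with 3 to 12 UMIs per group (0.967 to 4.81 CPM).

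The 5585 Cdh5-positive cells without a hashtag give a further view of the members. Flt1 was at 339 CPM (333 to 345), Nrp1 at 396 CPM (389 to 403) and Nrp2 at 156 CPM (152 to 160.5) in them. Vegfc was at 64.6 CPM (61.9 to 67.4), between the heart levels of iSuRe-Cre and iSuRe-HadCre. Within the lymphatic gate, Flt1 was at 4.19 CPM (1 UMI; 0.106 to 23.4) in 11 cells with a hashtag and at 147 CPM (110.3 to 192) in 38 cells without one, and the source of that difference was not tested.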
